A study of Danio rerio with 19 samples.

Results

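Nuclear genes for subunits of the mitochondrial respiratory chain and ATP synthase were followed across 6 genotype groups of larval zebrafish heads. Members were taken by symbol alone, as every gene whose symbol, ignoring case, begins with the names used for subunits of complex I (ndufa, ndufb, ndufc, ndufs, ndufv), complex II (sdha to sdhd), complex III (uqcr), complex IV (cox4 to cox8) and complex V (atp5), leaving out assembly factors. This gave 96 of the 32020 genes in the tables, with 42 in complex I, 5 in complex II, 8 in complex III, 21 in complex IV and 20 in complex V. The genes NDUFA4, ndufa4b, NDUFA4L2 and ndufa4l2b stand with complex I by symbol, although the NDUFA4 protein is now placed in complex IV. Where IDs share a symbol (9 members), the last 6 digits of the ID follow it, and near-identical copies may share reads, so the values of these 9 are uncertain.

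RNA of 1 larval head, without eyes per the protocol, was sequenced per library, in 19 libraries of 2 lines. The scn1lab line carries the Δ44 allele of a voltage-gated sodium channel gene and gave 3 libraries from larvae of each labelled genotype, homozygous mutant (HOM), heterozygous carrier (HET) and wild type (WT). The dyrk1a line carries the dyrk1aaΔ77 and dyrk1abΔ8 alleles, of 2 related protein kinase genes, and gave 4 HOM, 3 HET and 3 WT libraries. Larvae were siblings or cousins from incrosses of heterozygous fish, no drug treatment is given in the labels, and the larval age is not given in the sources used here.

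Oxidative phosphorylation makes most of the ATP that neurons spend on ion pumping and synaptic transmission. Complexes I and II pass electrons from NADH and succinate to ubiquinone, complex III passes them on to cytochrome c, and complex IV reduces oxygen. Complexes I, III and IV pump protons, and complex V lets the protons back through its rotor to make ATP. Complex II is also an enzyme of the citric acid cycle and is encoded in the nucleus alone, while the other complexes combine nuclear subunits with subunits encoded in mitochondrial DNA. No mitochondrially encoded gene was matched in the tables (0 genes), so the values below concern the nuclear side only.

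Libraries held between 15.1 and 29.9 M counts each. The labels call the tissue whole brain, and synaptic and neuronal marker genes took 0.135% to 1.07% of counts, while skeletal muscle genes took 0.736% to 7.6%, so the heads held other tissue too. Digestive genes took 13.4% and 17.0% of counts in scn1lab HOM1 and HOM3, 13.7% in HET2 and 6.26% in dyrk1a HET4, against 0.0543% to 0.691% in scn1lab WT and 0.00608% to 0.212% in dyrk1a WT. Genes for cytosolic ribosomal proteins took 20.4% of counts in scn1lab HET3 and between 4.96% and 9.41% in the other 18 libraries. Photoreceptor genes took 0.0148%, 1.22% and 0.897% of counts in scn1lab WT1 to WT3, 0.0484% to 0.568% in HET and 0.0129% to 0.109% in HOM. In dyrk1a they took 0.0221% to 0.397% in WT, 0.032% to 0.266% in HET and 0.0202% to 0.0427% in HOM. Their part in the values below was not tested. In such bulk samples, fewer cells of a type and less RNA per cell cannot be told apart.

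The 96 members together took 1.63 ± 0.0987% of counts in scn1lab WT and 1.81 ± 0.151% in dyrk1a WT (mean ± SD, n = 3 each). Of the member counts in the WT libraries, complex V held 34.8% to 37.8%, complex I 29.7% to 31.4%, complex IV 15.7% to 18.1%, complex II 6.81% to 9.96% and complex III 7.2% to 8.29%. These are shares of counts, so long transcripts weigh more in them than short ones. The 95% Wilson interval of a member share extends no more than 0.02 percentage points to either side and covers counting error only.

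Levels are given below as CPM, a gene's counts divided by the TMM-scaled size of its library and brought to a common total. CPM is not per transcript length, so it is compared between libraries and not between genes. In complex I, NDUFV1, which binds NADH, had 328 to 468 CPM over the 6 WT libraries, and NDUFS7, an iron-sulfur subunit near the ubiquinone site, 208 to 356 CPM. In complex II, SDHA, the flavoprotein that oxidises succinate, had 403 to 744 CPM in WT and the iron-sulfur subunit SDHB 365 to 517 CPM. In complex V, the catalytic beta subunit ATP5F1B had 1174 to 1994 CPM, and atp5mc3b, for subunit c of the rotor ring, 506 to 872 CPM. In complex III, UQCRC1, a core protein, had 213 to 416 CPM, and in complex IV COX5B_015978 had 300 to 489 CPM. These ranges pool the 2 lines, which were scaled separately. Each gene named above in this paragraph except atp5mc3b lay higher in every dyrk1a WT library than in every scn1lab WT library. ATP5F1B, for example, had 1174 to 1259 CPM in scn1lab WT and 1896 to 1994 CPM in dyrk1a WT. UQCRB of complex III also lay higher (112 to 162 CPM in scn1lab WT, 193 to 340 CPM in dyrk1a WT). In complex IV, cox6b2 overlapped, with 314 to 522 CPM in scn1lab WT and 321 to 356 CPM in dyrk1a WT. The share of all genes that lay higher in this way was not counted. The part of line, scaling or batch in this was not tested.

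Some copies and isoforms gave few counts. NDUFA4L2 had 4.51 to 9.96 CPM and ndufa9b 8.6 to 15.3 CPM over the WT libraries. SDHD_055712 had 1.03 to 4.08 CPM, cox4i1l 0.971 to 4.6 CPM and COX5B_113254 0.248 to 10.3 CPM. The gene ndufa4l2b was at 0 counts in every library except scn1lab WT2 (1.37 CPM) and WT3 (0.206 CPM), and it is the 1 member that did not pass the filter on low counts. The other 95 members were tested in each line.

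**Figure D1:**
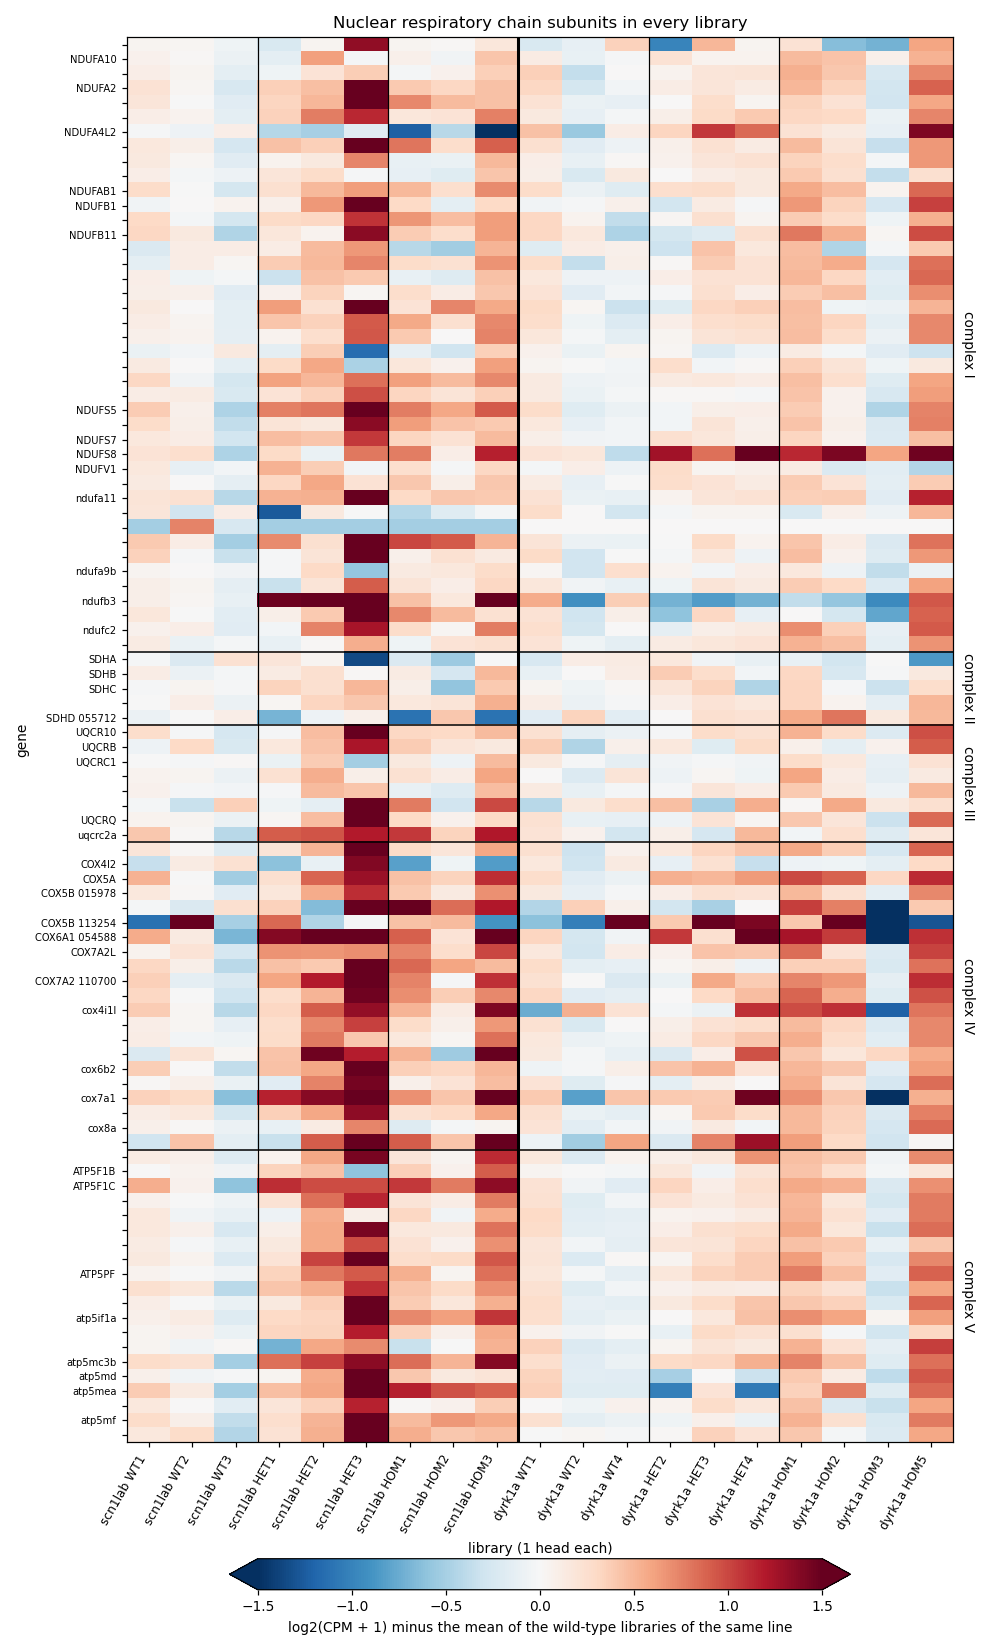
Colour shows log2(CPM + 1) of each member (rows, by complex) in each library (columns) minus the mean of the WT libraries of the same line, clipped at 1.5 on either side, with gene names beside some of the rows. Red runs down whole columns, most of all in scn1lab HET3 (median over 95 members 1.14) and dyrk1a HOM5 (0.71), while dyrk1a HOM3 is pale blue (-0.19).

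The first question was which subunit genes differ between scn1lab HOM and WT heads. None of the 95 tested members passed the threshold, an adjusted p under 0.05 in edgeR's quasi-likelihood test with Benjamini-Hochberg adjustment over all genes (0.00466% of all genes passed). DESeq2 called 1 member, ATP5F1C, where it called 7.33% of all genes. At an unadjusted p under 0.05 there were 9 members (9.47%, against 18.9% of all genes), 8 of them higher in HOM (9.8% of all genes) and 1 lower (9.1% of all genes). Leaving out HOM1 changed these 9 to 4 (4.21%, against 11.9% of all genes in that fit) and leaving out HOM3 to 0 (against 12.7%). The number was 24 without HET3 (25.3%, against 25.4%) and 4 without WT1 (4.21%, against 15.6%). It was 1 without WT2 (1.05%, against 13.3%) and 1 without WT3 (1.05%, against 9.91%). The median log2 change of the members was 0.37, against 0.09 over all genes tested, and it was 0.14 without WT3 and 0.14 when the libraries richest in digestive RNA were left out, and 87 of the 95 had a value above 0 (91.6%, against 54.6% of all genes). For 44 members every HOM library lay above every WT library (46.3%, against 18.3% of all genes), and for 1 member every HOM library lay below (18.2% of all genes).

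By complex, the median log2 change in scn1lab HOM was 0.32 in complex I, 0.02 in complex II, 0.28 in complex III, 0.59 in complex IV and 0.44 in complex V. Complex II thus lay at or under the median of all genes, and its 5 genes ran from -0.87 (SDHD_055712) to 0.31 (SDHD_030139). All 20 members of complex V had values above 0, from 0.1 in atp5mc1 to 1.01 in ATP5F1C.

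ATP5F1C (ENSDARG00000045514), the gamma subunit that turns inside the catalytic head of ATP synthase, had the smallest p. Listed in replicate order, its CPM values were 1106, 915 and 1352 for HOM, then 1150, 1052 and 1048 for HET, and 774, 556 and 349 for WT. Every mutant library lay above every WT library, and WT3 was the lowest of the 9. The log2 change of ATP5F1C in HOM was 1.01 (SE 0.33, n = 3 each), with an edgeR adjusted p of 0.183 and a DESeq2 adjusted p of 0.0477. Without WT3 it was 0.61, with an edgeR adjusted p of 0.561.

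The rotor-ring gene atp5mc3b had 1280, 1023 and 1862 CPM in HOM, 1272, 1460 and 1841 CPM in the HET libraries, and 872, 840 and 506 CPM in WT. HOM and HET again lay wholly above WT. Its log2 change in HOM was 0.91 (SE 0.35, edgeR adjusted p = 0.215), and 0.55 without WT3.

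In complex III, uqcrc2a, which encodes a core protein of the complex, had 225, 136 and 249 CPM in HOM, 203, 208 and 247 CPM in the HET libraries, and 142, 109 and 80.1 CPM in WT. HOM2 lay within the WT range, and the 3 HET libraries lay above it. The log2 change in HOM was 0.88 (SE 0.31, edgeR adjusted p = 0.198), and 0.55 without WT3. Across all alternative fits (DESeq2 and other scalings, filters, covariates and left-out libraries) it ran from 0.3 to 0.99.

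In complex IV, COX7A2L, whose mammalian protein joins complexes III and IV into supercomplexes, had 114, 82 and 138 CPM in HOM, 109, 108 and 111 CPM in the HET libraries, and 70.5, 78.7 and 57 CPM in WT. Neither mutant group overlapped with WT, and HET varied least. The log2 change in HOM was 0.70 (SE 0.25, edgeR adjusted p = 0.202), and 0.43 without WT3. COX6A1_054588 had 32.7, 19.9 and 101 CPM in HOM and 25.7, 18.9 and 10.3 CPM in WT, so that the groups overlapped and HOM3 stood far above the rest. Its log2 change was 1.48 (SE 0.56, edgeR adjusted p = 0.215), and 0.52 without HOM3. Across all alternative fits it ran from 0.12 to 1.72.

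The 1 member lower in every HOM library was NDUFA4L2 (ENSDARG00000103114), a paralog of NDUFA4 that is induced by low oxygen in mammalian cells. It had 2.3, 4.77 and 1.73 CPM in HOM, 4.69, 4.43 and 5.82 CPM in the HET libraries, and 6.59, 6.28 and 7.21 CPM in WT. The lowest libraries were HOM1 and HOM3, the HOM libraries with the high digestive shares, whose part in the value was not tested. HOM2, with 0.05% digestive counts, lay among the HET libraries. The log2 change in HOM was -1.19 (SE 0.45, edgeR adjusted p = 0.212), and -1.88 without HOM2. With 1 library left out at a time it ran from -1.88 to -0.92. Across all alternative fits it ran from -1.88 to -0.49.

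SDHA, chosen after its values were seen, had 404, 322 and 466 CPM in HOM, 533, 484 and 183 CPM in the HET libraries and 464, 403 and 551 CPM in WT. The 3 groups overlapped, and HET3 stood lowest. Its log2 change in HOM was -0.25 (SE 0.39, edgeR adjusted p = 0.763).

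The scaling matters for the sign in this line. The TMM factors of the WT libraries lay between 1.204 and 1.35, those of HOM between 0.752 and 1.152 and those of HET between 0.831 and 0.915. With library sizes alone, the median log2 change of the members in HOM against WT was -0.10 and that of all genes -0.37. Scaling moves all genes of a library together, so the members and all genes shifted alike, and the direction given for a member in this line is relative to the scaling.

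As an unscaled share of all counts, the members held 1.46% to 1.7% in HOM, 1.49% to 2.15% in HET and 1.53% to 1.72% in WT, which overlap. The share of complex II did not: in replicate order it was 0.0898%, 0.0961% and 0.0968% for HOM, 0.108%, 0.104% and 0.0707% for HET, and 0.131%, 0.121% and 0.152% for WT. Every HOM and HET library lay below every WT library in this unscaled share. Divided by the TMM factors, the values were 0.104%, 0.0834% and 0.129% for HOM, 0.118%, 0.119% and 0.0851% for HET, and 0.109%, 0.0979% and 0.113% for WT. These overlap, with HOM3 highest, so the separation in the share of all counts was not kept after scaling. The digestive counts in HOM1, HOM3 and HET2 also enter the total of the unscaled share, and their part was not tested. Of the member counts, complex II made up 5.66% to 6.15% in HOM, 3.28% to 7.27% in HET and 7.45% to 9.96% in WT, and here too the mutant groups lay below WT. SDHA and SDHB weigh most in these sums, with WT means of 473 and 389 CPM, against 98 CPM for SDHC and 103 CPM for SDHD_030139. The 5 genes did not move alike. In CPM, SDHD_030139 alone lay apart from WT in HOM, with 115, 118 and 149 CPM above 102, 110 and 96.9 CPM (20.0% of the 5 genes, against 18.3% of all genes). Synaptic marker genes took 0.166% to 0.342% of counts in HOM, 0.135% to 0.444% in HET and 0.718% to 0.949% in WT, and their part in these shares was not tested.

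**Figure D2:**
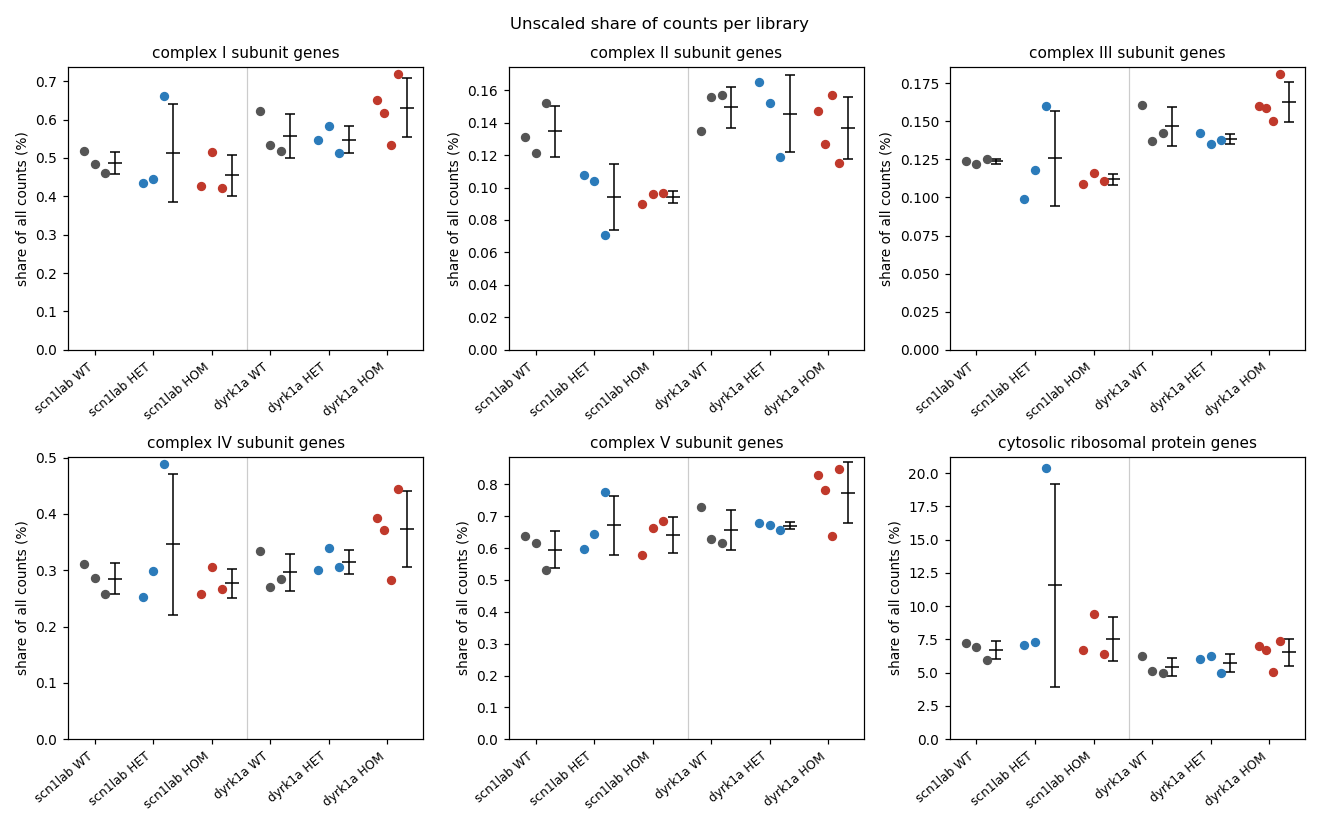
Unscaled percent of all counts per library for the subunit genes of each complex and for cytosolic ribosomal protein genes, with points for libraries, a dash for the group mean and bars for 1 SD. Complex II lies between 0.0707% and 0.108% in the mutant scn1lab libraries and from 0.121% upward in their WT libraries, and the ribosomal panel shows scn1lab HET3 at 20.4%.

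The comparison of scn1lab HET with WT uses the same 3 WT libraries, so it is not independent of the one above. No member passed in edgeR (0.0% of all genes passed), and DESeq2 called 1, ndufb3, where it called 1.55% of all genes. At an unadjusted p under 0.05 there were 41 members, all higher in HET (43.2%, against 13.2% of all genes and 7.24% in that direction). Values above 0 were found for 87 members (53.4% of all genes). The median log2 change was 0.67 against 0.06 over all genes, and with library sizes alone it was 0.13 against -0.46. For 42 members every HET library lay above every WT library (44.2%, against 9.86% of all genes), and for 1, NDUFA4L2, below (10.9% of all genes).

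Much of this rested on HET3. Of the 95 members, 63 had their highest level of the 9 scn1lab libraries in HET3 (19.7% of all genes did), and 63 had their lowest in WT3 (14.5% of all genes). Without HET3 the median log2 change in HET was 0.36 and 11 members had an unadjusted p under 0.05 (11.6%, against 14.2% of all genes in that fit). Without WT3 these values were 0.48 and 2 (2.11%, against 5.17% of all genes). The number was 15 without WT1 (15.8%, against 10.2% of all genes) and 5 without WT2 (5.26%, against 9.33%). It was 59 without HET1 (62.1%, against 13.2%) and 44 without HET2 (46.3%, against 18.2%). The HOM libraries enter through the shared spread. Without HOM1 the number was 29 (30.5%, against 10.9%), without HOM2 15 (15.8%, against 12.8%) and without HOM3 35 (36.8%, against 12.7%).

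The smallest p belonged to ndufb3 (ENSDARG00000075709), an accessory subunit in the membrane arm of complex I. It had 96.5, 98.8 and 276 CPM in HET1 to HET3, 36.4, 34.8 and 31.6 CPM in WT, and 46.9, 38.3 and 107 CPM in HOM. The WT libraries lay close together, and all HET libraries and HOM3 lay well above them. The log2 change in HET was 2.20 (SE 0.51, n = 3 each), with an edgeR adjusted p of 0.341 and a DESeq2 adjusted p of 0.00824, and without HET3 it was 1.51.

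NDUFS5, another accessory subunit of complex I, had 127, 132 and 282 CPM in the HET libraries and 98.2, 79.3 and 54 CPM in WT. HET lay above WT, with HET3 far from the other 2. Its log2 change was 1.23 (SE 0.36, edgeR adjusted p = 0.341), and 0.75 without HET3.

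The gene cox7a1, which in mammals encodes the heart and skeletal muscle form of a complex IV subunit, had 30.6, 35.8 and 47.9 CPM in the HET libraries, 17.1, 16.3 and 8.21 CPM in WT, and 21.8, 18 and 48.2 CPM in HOM. Every HET and HOM library lay above every WT library. The log2 change in HET was 1.46 (SE 0.43, edgeR adjusted p = 0.341). Unscaled, skeletal muscle genes took 2.99% to 7.6% of counts in HET and 3.99% to 7.01% in WT, ranges that overlap. With TMM scaling, the median log2 change of these muscle genes in HET was 0.44, against 0.06 over all genes. The part of muscle content in the cox7a1 value was not tested. COX7A2_110700, the related form found in many tissues, had 16.1, 24.9 and 34.3 CPM in the HET libraries and 13.6, 9.32 and 8.77 CPM in WT, with no overlap (log2 change 1.25, SE 0.39, edgeR adjusted p = 0.341). The values of uqcrc2a and atp5mc3b in HET were 0.99 (SE 0.31) and 1.04 (SE 0.35), both with an edgeR adjusted p of 0.341.

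HET3 did not raise all subunits alike. Relative to the WT mean, its median log2(CPM + 1) was 0.75 higher over the 32 core members, which include the catalytic and electron-carrying subunits, and 1.35 higher over the other 63. Of the 95 members, 22 core and 57 other members lay above all WT libraries in HET3, while 5 core members and 2 others lay below all of them. Among the members below were NDUFS1, SDHA, UQCRC1 and ATP5F1B of the core and NDUFA4L2 and ndufa9b of the others. All of these were named after their values were seen. HET3 was extreme for many genes. It held the highest level of the scn1lab libraries for 63 of the 95 members (19.7% of all genes) and the lowest for 6 (26.3% of all genes). The share of all genes above or below WT alone was not counted, so the counts above and below WT have no background beside them.

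NDUFS1, the large iron-sulfur subunit of complex I, had 47.5 CPM in HET3 against 98.6, 103 and 117 CPM in WT. ATP5F1B had 799 CPM in HET3 against 1222, 1259 and 1174 CPM in WT, and 1538 and 1654 CPM in the other HET libraries. By contrast cox6b2, for a small complex IV subunit, had 1410 CPM in HET3 against 522, 405 and 314 CPM in WT. The same library held the large share of ribosomal protein counts, whose part in these values was not tested.

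Between scn1lab HOM and HET, no member passed in edgeR (0.00466% of all genes passed) or in DESeq2 (0.27% of all genes). The median log2 change of the members was -0.24 against 0.01 over all genes, and without HET3 it was 0.01. Only ndufb3 had an unadjusted p under 0.05 (1.05% of members, against 4.26% of all genes and 1.88% in that direction), with a log2 change of -1.30 (SE 0.50, edgeR adjusted p = 0.945). Without HET3 this change was -0.61. Without HET1, 17 members had such a p (17.9%, against 14% of all genes in that fit). No member was higher in every HOM library (4.98% of all genes were), and 1, ndufa11, was lower in all of them (2.92% of all genes). This accessory subunit of complex I had 67.5, 72.7 and 71.7 CPM in HOM and 78.9, 79.4 and 180 CPM in the HET libraries, a log2 change of -0.67 (SE 0.35, edgeR adjusted p = 0.945), and -0.17 without HET3. COX4I2 (-1.02, SE 0.49), NDUFB1 (-0.83, SE 0.40), atp5md (-0.97, SE 0.47) and NDUFA2 (-0.75, SE 0.41) came next by p, and in each the groups overlapped. Without HET3 the changes of these 4 genes were -0.19, -0.24, -0.08 and -0.02.

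**Figure D3:**
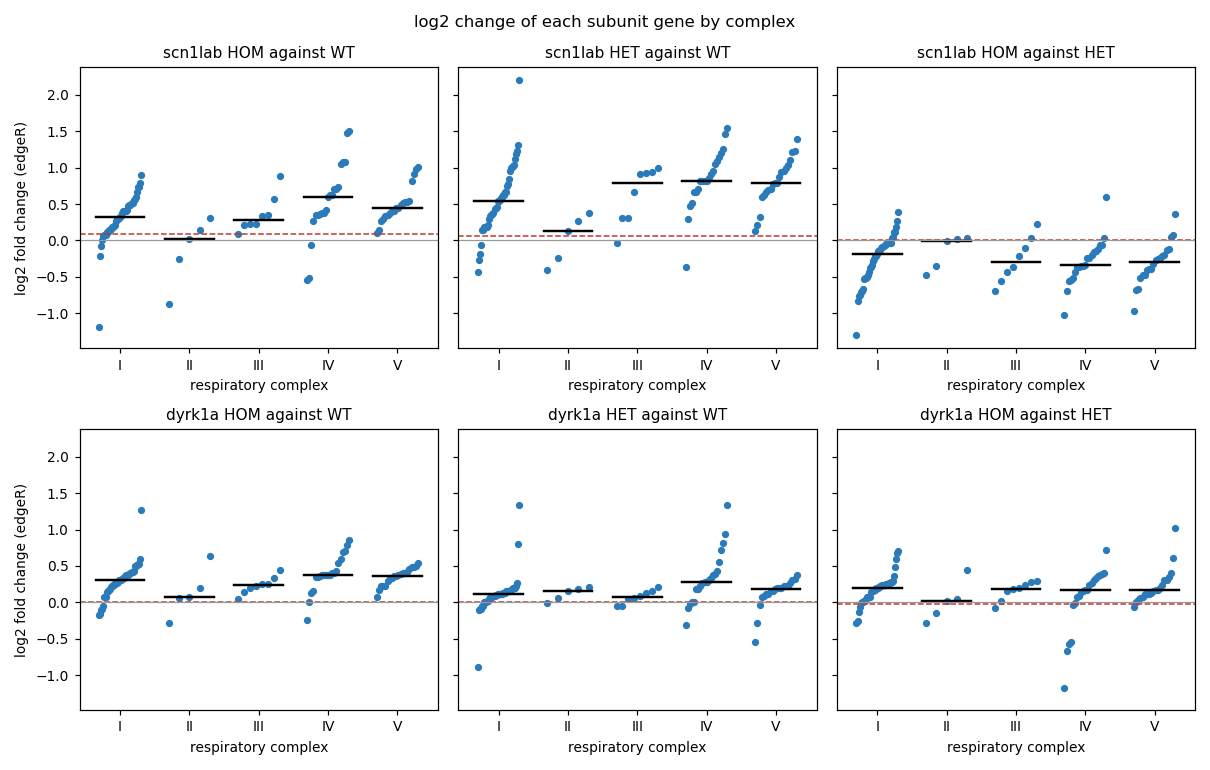
Each point is the edgeR log2 fold change of 1 member, by complex, with a black line at the median of the complex and a red dashed line at the median of all genes tested. In scn1lab HOM, scn1lab HET and dyrk1a HOM against WT, the points of complexes I, III, IV and V lie mostly above the red line. In that order the medians of the 5 complex II genes are 0.02, 0.13 and 0.08, beside 0.09, 0.06 and 0.01 over all genes. Complex II thus lies under the line in scn1lab HOM and above it in the others.

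In the dyrk1a line, no member passed between HOM and WT in edgeR (0.0% of all genes passed). DESeq2 called 2 members, COX5A and NDUFS8, where it called 0.771% of all genes. At an unadjusted p under 0.05 there were 8 members, all higher in HOM (8.42%, against 7.8% of all genes, 4.54% higher and 3.26% lower). The median log2 change was 0.34 against 0.01 over all genes, and 87 of 95 members had values above 0 (91.6%, against 51.1% of all genes). The groups did not overlap for 3 members, all higher in HOM (3.16%, against 4.05% of all genes), and for none lower (3.65% of all genes). The share of members without overlap was near that of all genes.

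By complex the medians in dyrk1a HOM were 0.30 in complex I, 0.08 in complex II, 0.24 in complex III, 0.38 in complex IV and 0.36 in complex V. The 20 complex V members all had values above 0, from 0.08 (atp5if1b) to 0.54 (ATP5PF). With library sizes alone the median of all members was 0.26 and that of all genes -0.04, so the direction did not depend on TMM here.

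The 4 HOM libraries differed more among themselves than the WT libraries did. The median log2 difference of the members from the WT mean was 0.45 in HOM1, 0.26 in HOM2, -0.19 in HOM3 and 0.71 in HOM5, and it ran from -0.11 to 0.2 in WT. HOM5 held the highest level of the 10 dyrk1a libraries for 70 of 95 members (18% of all genes), and HOM3 the lowest for 49 (15.2% of all genes). Without HOM5 the median log2 change was 0.18 with 4 members at an unadjusted p under 0.05, and without HOM3 it was 0.49 with 59 (62.1%, against 14.9% of all genes in that fit). Without HOM5 the share was 4.21%, against 7.09% of all genes. The number was 2 without HOM1 (2.11%, against 6% of all genes in that fit) and 5 without HET3 (5.26%, against 6.73%). It was 13 without WT1 (13.7%, against 8.12%), 3 without WT2 (3.16%, against 4.87%) and 2 without WT4 (2.11%, against 4.19%). Skeletal muscle genes took 0.736% of counts in HOM3 and 2.38% to 4.58% in the other HOM libraries, against 1.73% to 4.09% in WT. The part of muscle content in the member levels was not tested.

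COX5A (ENSDARG00000099663), a nuclear subunit of cytochrome c oxidase, had 155, 145, 97 and 170 CPM over HOM replicates 1, 2, 3 and 5, 113, 110 and 122 CPM in the HET libraries, and 93.4, 69 and 73.1 CPM in WT. HOM and HET both lay above WT, with HOM3 just above WT1. The log2 change in HOM was 0.85 (SE 0.20, n = 4 and 3), with an edgeR adjusted p of 0.449 and a DESeq2 adjusted p of 0.021. In HET it was 0.55 (SE 0.21, n = 3 each), with an edgeR adjusted p of 1.0.

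NDUFS8 (ENSDARG00000051986), an iron-sulfur subunit on the electron path to ubiquinone, had 15.6, 19.2, 10.5 and 19.9 CPM in HOM, 17.2, 12.5 and 21.7 CPM in the HET libraries, and 7.8, 7.56 and 4.85 CPM in WT. Every mutant library lay above every WT library, and the ranges of HOM and HET overlapped. The log2 change was 1.27 in HOM (SE 0.30), with an edgeR adjusted p of 0.449 and a DESeq2 adjusted p of 0.0258. In HET it was 1.34 (SE 0.32), with an edgeR adjusted p of 1.0 and a DESeq2 adjusted p of 0.0675. HOM and HET share the 3 WT libraries, so these values are not independent of each other. In scn1lab WT the gene had 18.2, 18.9 and 11.1 CPM, near the mutant levels of the dyrk1a line, although the lines were scaled separately, and only the tables of the scn1lab line carry a date tag in their headers, so that line and such a batch cannot be told apart.

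NDUFA10, an accessory subunit of complex I, had 114, 110, 85.7 and 117 CPM in dyrk1a HOM and 88.9, 75.5 and 80.5 CPM in WT (log2 change 0.39, SE 0.15, edgeR adjusted p = 0.568). NDUFAB1, the mitochondrial acyl carrier protein that is also a complex I subunit, had 219, 203, 153 and 268 CPM in HOM and 178, 138 and 130 CPM in WT (0.50, SE 0.19, edgeR adjusted p = 0.568). In both genes HOM3 alone lay within the WT range. ATP5PF, a coupling factor in the stalk of ATP synthase, had a log2 change of 0.54 (SE 0.23, edgeR adjusted p = 0.612), and again HOM3, at 98.6 CPM, lay below the WT libraries.

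The gene atp5if1a, for an inhibitor of the reverse, ATP-splitting reaction of complex V, had 105, 97.2, 66.4 and 99.1 CPM in dyrk1a HOM and 76.5, 58.2 and 59.8 CPM in WT. HOM3 was the 1 HOM library within the WT range. The log2 change was 0.50 (SE 0.19, edgeR adjusted p = 0.568).

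**Figure D4:**
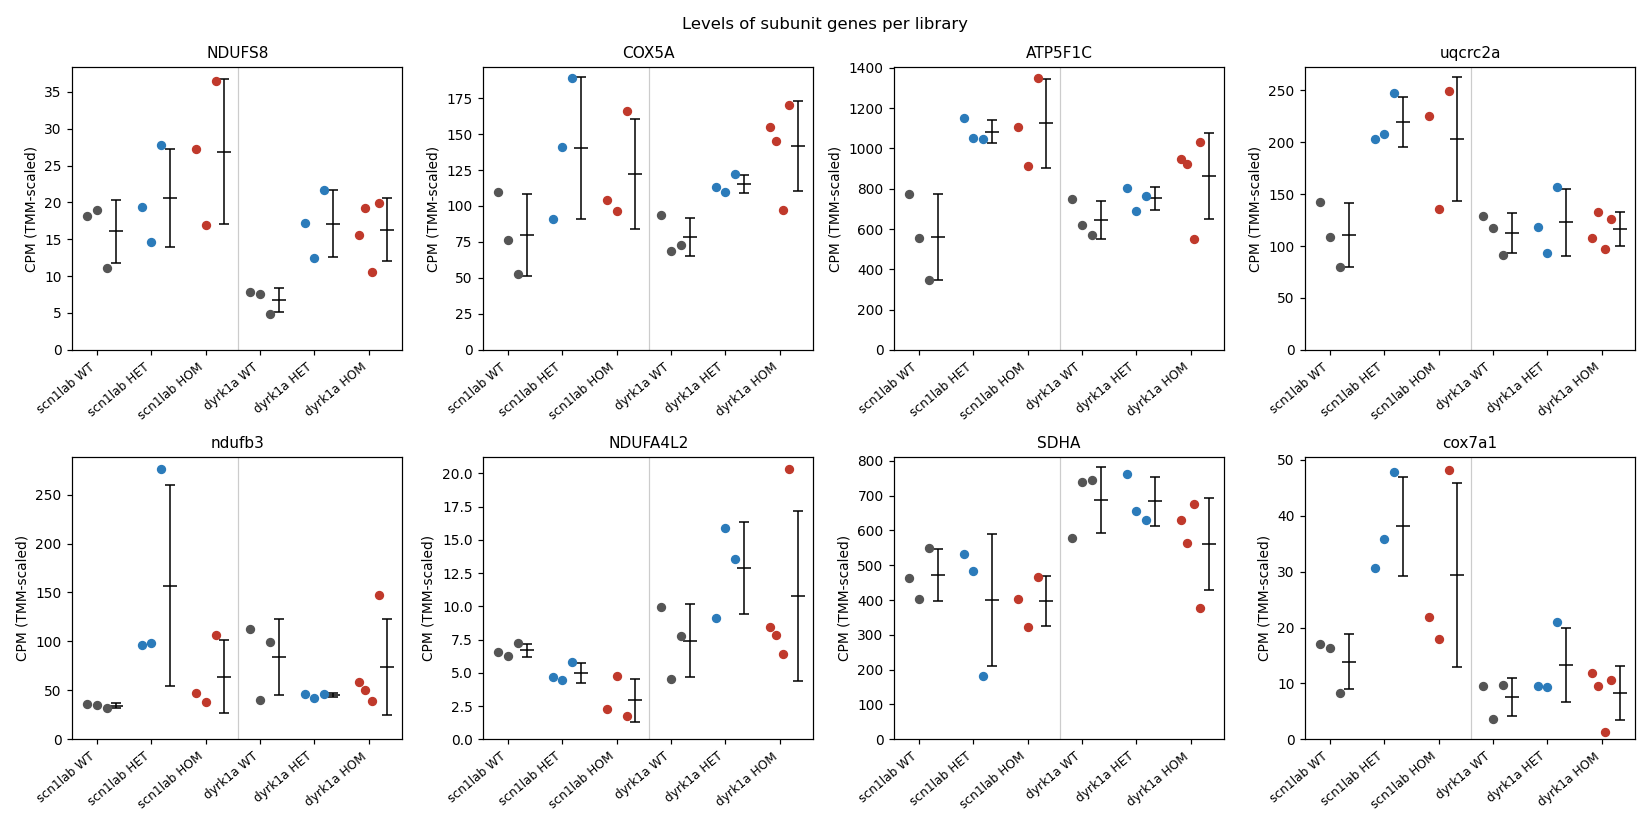
CPM on TMM-scaled library sizes (vertical axes, from 0) of 8 members in every library by group, with points for libraries, a dash for the group mean and bars for 1 SD. NDUFS8 and COX5A show the dyrk1a WT libraries below all mutant libraries of that line, and ndufb3 shows a wide spread within groups of both lines.

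Between dyrk1a HET and WT, no member passed in edgeR (0.0% of all genes passed) or in DESeq2 (0.133% of all genes). The median log2 change was 0.15 against 0.01 over all genes, or 0.01 against -0.12 with library sizes alone. NDUFS8 and COX5A were the 2 members with an unadjusted p under 0.05 and both were higher in HET (2.11%, against 3.33% of all genes, 2.02% higher and 1.31% lower). For 6 members every HET library lay above every WT library (6.32%, against 6.17% of all genes), and for none below (5.95% of all genes). Among these was cox6b2, with 453, 482 and 388 CPM in the HET libraries and 321, 330 and 356 CPM in WT (log2 change 0.39, SE 0.20, edgeR adjusted p = 1.0). The gene ndufb3 had 46.6, 42.6 and 46.7 CPM in the HET libraries and 113, 40.1 and 99 CPM in WT, so that WT2 lay below HET and the other 2 WT libraries far above (-0.89, SE 0.51, edgeR adjusted p = 1.0). COX6A1_054588 (1.34, SE 0.74, and 0.71 without HET4) and NDUFA4L2 (0.80, SE 0.46) had groups that overlapped.

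Between dyrk1a HOM and HET, no member passed in edgeR (0.0% of all genes passed) or in DESeq2 (0.747% of all genes). Both members with an unadjusted p under 0.05 were higher in HOM (2.11%, against 6.61% of all genes, 3.92% higher and 2.68% lower), and no member had groups that did not overlap (4.07% of all genes lay higher in HOM and 2.89% lower). Without HOM3, 33 members had an unadjusted p under 0.05 (34.7%, against 10.9% of all genes in that fit). The median log2 change was 0.17 against -0.02 over all genes, and 79 members had values above 0 (48.0% of all genes). It was 0.31 without HOM3 and 0.03 without HOM5. The gene atp5mea, for subunit e at the dimer interface of ATP synthase, had 57.3, 77.3, 39.3 and 82 CPM in HOM and 21.5, 51.8 and 21 CPM in HET (log2 change 1.02, SE 0.36, edgeR adjusted p = 0.635). HET3 lay inside the HOM range, and without it the change was 1.59. NDUFB11 had a log2 change of 0.68 (SE 0.26, edgeR adjusted p = 0.678). The next by p were atp5md (0.61, SE 0.29), NDUFB1 (0.59, SE 0.28), ndufc2 (0.49, SE 0.24) and NDUFV1 (-0.29, SE 0.15). Without HOM5 the first 3 of these were 0.34, 0.35 and 0.31.

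Whether the lines differ was tested as the difference of their effects in 1 fit of all 19 libraries. For the HOM effect, dyrk1a minus scn1lab, no member passed in edgeR (0.0267% of all genes passed) or in DESeq2 (1.16% of all genes). The median difference was -0.06 against -0.04 over all genes. NDUFA4L2 had the smallest p, with a difference of 1.71 (SE 0.62, edgeR adjusted p = 0.363). It was lower in every scn1lab HOM library than in WT, whereas in dyrk1a it had 8.43, 7.88, 6.44 and 20.3 CPM in HOM and 9.96, 4.51 and 7.77 CPM in WT, which overlap. The other member with an unadjusted p under 0.05 was uqcrc2a (2.11% in all, against 10.8% of all genes), with -0.84 (SE 0.35, edgeR adjusted p = 0.409). In dyrk1a it had 108, 133, 97.5 and 126 CPM in HOM and 129, 117 and 91.6 CPM in WT. Differences of ATP5F1C (-0.60, SE 0.37), ndufb3 (-1.09, SE 0.71), cox8a (0.45, SE 0.33) and NDUFV1 (-0.35, SE 0.27) were within about 2 SE.

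For the HET effect, no member passed in edgeR (0.00445% of all genes passed), and DESeq2 called 1, ndufb3, where it called 0.409% of all genes. The median difference was -0.54 against -0.01 over all genes, and without scn1lab HET3 it was -0.15. At an unadjusted p under 0.05 there were 10 members, all with a lower HET effect in dyrk1a (10.5%, against 6.12% of all genes). The number was 31 without scn1lab HET1 (32.6%, against 7.99% of all genes in that fit). It was 18 without scn1lab HET2 (18.9%, against 11.3%) and 2 without scn1lab HET3 (2.11%, against 7.06%). With any 1 other library left out it lay between 4 and 12 (4.21% to 12.6%, against 3.43% to 6.42% of all genes). The difference for ndufb3 was -3.10 (SE 0.75), with an edgeR adjusted p of 0.637 and a DESeq2 adjusted p of 0.00976. Next came atp5mea (-1.93, SE 0.66), NDUFS5 (-1.21, SE 0.45), atp5md (-1.53, SE 0.58), uqcrc2a (-0.88, SE 0.36) and atp5mf (-1.27, SE 0.53), each with an edgeR adjusted p of 0.806. Without scn1lab HET3 the values of atp5mea, NDUFS5, atp5md and atp5mf were -0.96, -0.65, -0.57 and -0.35.

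Several subunits are encoded by related genes, and the share of 1 gene in the counts of such a pair does not depend on library scaling. The 12 pairs compared were picked after the values were seen, so their shares are a description without a test. The inhibitor gene atp5if1a made up 18.6% to 20.5% of the counts of atp5if1a and atp5if1b in scn1lab HOM, 14.7% to 20.4% in HET and 14.1% to 15.4% in WT. In dyrk1a it made up 17.7% to 21.0% in HOM, 13.6% to 16.8% in HET and 14% to 16.5% in WT. In both lines the HOM libraries lay above the WT libraries, while HET overlapped with WT. Of the 12 pairs, this was the only one with HOM apart from WT in both lines. Other pairs lay apart in scn1lab HOM alone. The first gene was higher for cox8b with cox8a (9.9% to 19.3%, against 5.6% to 9.69% in WT). It was also higher for atp5mea with atp5meb and for COX5B_068738 with COX5B_015978.

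NDUFA4L2 made up 0.807% to 3.17% of the counts of NDUFA4L2 and NDUFA4 in scn1lab HOM, 2.03% to 2.85% in HET and 4.61% to 5.99% in WT. In dyrk1a the ranges were 4.53% to 8.33%, 5.96% to 8.86% and 3.53% to 6.26%, which overlap. ATP5MC3 made up 7.62% to 9.24% of the counts of ATP5MC3 and atp5mc3b, which both encode subunit c, in scn1lab HOM, 5.71% to 9.49% in HET and 10.7% to 16.1% in WT. In dyrk1a it made up 16.9% to 19.3% in HOM, 15.2% to 17.0% in HET and 18.8% to 19.8% in WT. The scn1lab mutants lay below their WT libraries for both pairs, and dyrk1a HET lay below its WT libraries for the second.

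COX4I2 made up 21.6 ± 7.45% of the counts of COX4I2 and COX4I1 in scn1lab HOM and 33.9 ± 7.31% in WT (mean ± SD, n = 3 each), and in dyrk1a 27.7 ± 4.82% in HOM (n = 4) and 33.3 ± 1.05% in WT (n = 3). The libraries of the groups overlapped in both lines. COX6A1_054588 made up 21.3% to 23.2% of its pair with cox6a1_022438 in scn1lab HET and 7.62% to 15.5% in WT, without overlap.

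**Figure D5:**
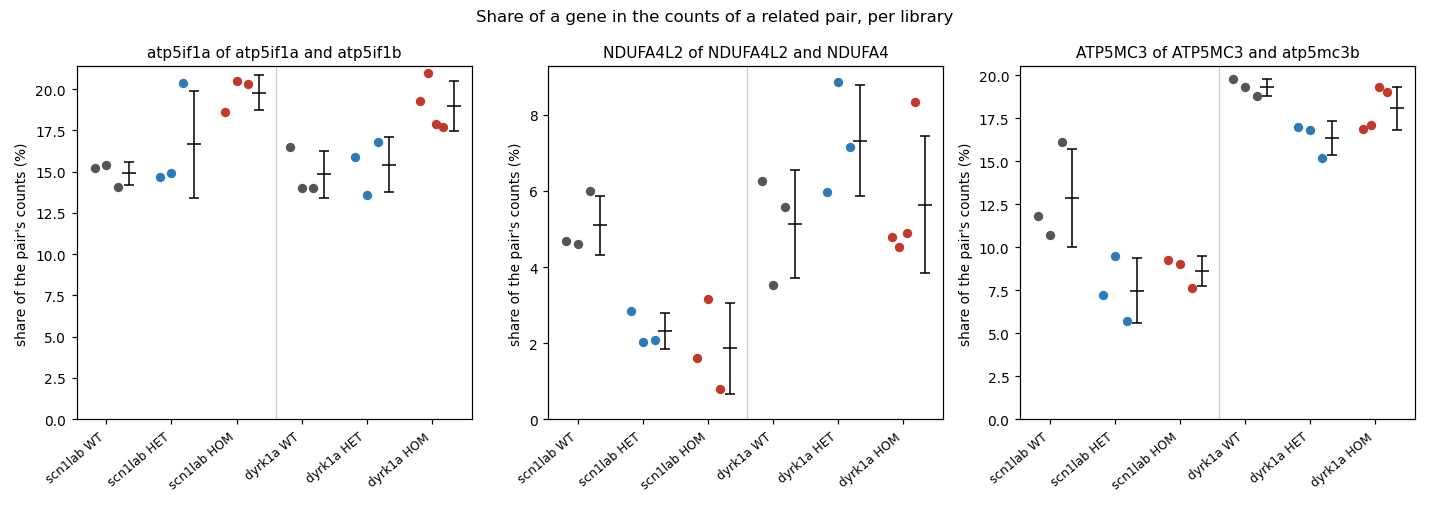
Percent of the counts of a pair of related genes that fell on the first gene, in each library by group, with points for libraries, a dash for the mean and bars for 1 SD. The left panel shows the HOM libraries of both lines, from 17.7% to 21.0%, above all WT libraries, which reach 16.5% at most.

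Other genes of the same pathway, listed by function, were tested in the same fits. Of 62 assembly factors, 21 genes of cytochrome c, ubiquinone synthesis and electron transfer, 25 of the citric acid cycle, 25 of mitochondrial biogenesis and 83 of mitochondrial translation, 0 passed in edgeR in any of the 8 comparisons. In scn1lab HOM against WT the median log2 changes of these lists were 0.23, 0.27, 0.34, -0.06 and 0.25, beside 0.09 over all genes. With an unadjusted p under 0.05, 5 assembly factors, 3 electron transfer genes, 5 citric acid cycle genes, 2 biogenesis genes and 10 translation genes were higher, and 1 biogenesis gene was lower, where 9.8% of all genes were higher and 9.1% lower.

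In dyrk1a HOM against WT the medians were 0.14, 0.01, -0.01, -0.01 and 0.21, beside 0.01 over all genes and 0.34 over the subunits. At an unadjusted p under 0.05, 3 assembly factors, 1 electron transfer gene, 1 biogenesis gene and 6 translation genes were higher, and 2 biogenesis genes were lower, where 4.54% of all genes were higher and 3.26% lower. No citric acid cycle gene reached it in either direction in that comparison (0 in edgeR). The 98 cytosolic ribosomal protein genes had medians of 0.58 in scn1lab HOM, 1.38 in scn1lab HET, 0.36 in dyrk1a HOM and 0.21 in dyrk1a HET, against WT. In the same order the subunit medians were 0.37, 0.67, 0.34 and 0.15, and glycolysis genes had medians of -0.63, -0.40, -0.19 and -0.05.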

How the data were processed

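The deposited values are raw gene counts, whole numbers for the same genes in 1 table per library. Per the submitters' processing notes, Trim Galore 0.5.0, HISAT2 2.1.0, StringTie 1.3.3b, DESeq2 1.22.1 and the GRCz11 build were used; how reads shared by gene copies were counted is not given in the sources used here. Symbols came from a supplied table of gene names (28975 IDs with a symbol, 3045 without), and levels were not compared per length because no lengths were at hand.

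edgeR 4.0.16 in R 4.3.3 did the testing: genes passing filterByExpr, TMM scaling, and robust quasi-likelihood fits with two-sided F tests. Each line had its own fit, and the differences between lines came from 1 fit of all 19 libraries. P-values were adjusted over all genes by Benjamini-Hochberg, with a threshold of 0.05. The SE was derived from the F statistic and the log2 change. The fitting was tested on simulated data. DESeq2 1.42.0 and other scalings, filters, covariates and left-out libraries were alternatives.

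The members and lists were chosen with earlier results of these data known. The text names members past the threshold or, where fewer than 6 passed, the 6 smallest p, and the members with the highest and lowest counts in WT per complex. One member is not reported here. Tables were read with Python 3.11.15 and pandas 2.3.3, and plots made with matplotlib 3.10.9. RNA was extracted with 1 of 2 kits, per the labels' protocols, which do not say which library had which. Each library is 1 larva, so p-values measure the spread between larvae.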

Additional observations from a re-analysis of the deposited data

Results flagged for a closer look

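The 4 dyrk1a HOM libraries are the one group large enough to be checked for a library far from the rest. Of 35 values checked there, 3 stood out, where chance gives about 1 in 20. The 35 values were levels of the 29 named members and shares of counts of the members and complexes. They are not independent of each other, so the 3 cannot be told apart from chance. NDUFA4L2 was highest in HOM5, at 20.3 CPM, where the other 3 libraries had 6.44 to 8.43 CPM. COX4I2 was also highest in HOM5, at 89.1 CPM, against 65.2 to 69.0 CPM. COX6A1_054588 was lowest in HOM3, at 3.62 CPM, against 32.5 to 37.2 CPM. The same library held the lowest skeletal muscle share, 0.736%, whose part in this value was not tested. HOM3 also held the lowest level of the dyrk1a libraries for 49 of 95 members (15.2% of all genes).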

How the results depend on the processing

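No member passed in edgeR in any of the 8 comparisons, and the counts changed under few alternatives. With DESeq2, 1 member passed in scn1lab HOM against WT, 1 in scn1lab HET against WT, 2 in dyrk1a HOM against WT and 1 for the HET difference. With only the groups compared in the fit, 3 passed in scn1lab HOM against WT (atp5if1a, COX5B_068738 and atp5mea). They were 3.16% of the members tested, where 2077 genes passed in all (10%). With all 19 libraries in 1 fit, 1 member passed in that comparison (ATP5F1C, 1.05%), where 1278 genes passed in all (5.68%). Without the libraries of high digestive share (scn1lab HOM1, HOM3, HET1 and HET2 and dyrk1a HET4), scn1lab HOM2 and HET3 are each alone in their group and are assumed to vary like the other groups: 50 members then passed in scn1lab HET against WT (48 higher, 2 lower, beside 15.8% of all genes), 4 in HOM against HET (UQCRQ, ndufb3, NDUFB1 and atp5md, beside 3.25%) and 21 for the HET difference (beside 7.98%). In that setting the medians were 0.14 in scn1lab HOM against WT, 1.12 in HET against WT, -0.93 in HOM against HET, 0.18 for the HOM difference and -0.94 for the HET difference. With library sizes alone the medians were -0.10 in scn1lab HOM against WT, 0.13 in scn1lab HET against WT, 0.01 in dyrk1a HET against WT, 0.37 for the HOM difference and -0.12 for the HET difference, and the HOM difference of NDUFV1 was 0.08 where it was -0.35 with TMM. Leaving out 1 replicate at a time gave medians from 0.14 to 0.39 in scn1lab HOM against WT and from -0.71 to -0.15 for the HET difference, and 0 to 1 members past the threshold for the HOM difference (SDHD_055712 without scn1lab HOM2, when the HOM libraries left are at 0 counts, so its fitted value is no bound). The cause of these shifts was not tested. Counting error weighs most on the scarcest members, such as SDHD_055712, at 0 CPM in 2 libraries.

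Replicate numbers showed no sign of pairing the samples. Same-numbered libraries of different groups correlated in their deviations from -0.30 to 0.15 in scn1lab and from -0.14 to 0.23 in dyrk1a. Differently numbered ones correlated from -0.28 to 0.37 and from -0.23 to 0.25. Groups of 3 or 4 libraries are too small for these correlations to decide on pairing. With the replicate block 0 members passed in each comparison in edgeR, and the median in dyrk1a HET against WT was 0.28.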

Other observations

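The level of ndufb3 fell into separate ranges that the genotype labels matched in part. Over the 19 libraries it ran from 31.6 to 59.0 CPM in 12 and from 96.5 to 276 CPM in 7, with no library between. The 7 were the 3 scn1lab HET libraries, scn1lab HOM3, dyrk1a HOM5, and dyrk1a WT1 and WT4. This gap was noticed after the values were seen and was not tested.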
